A study of Mus musculus with 9 samples.

Results

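Transcripts of 10 genes of the LINC complex (linker of nucleoskeleton and cytoskeleton) and of the spermatid nuclear envelope were examined in mouse testis. The genes were Sun1, Sun2, Sun3, Sun5, Spag4 (also called Sun4), Syne1, Syne2, Lmna, Lmnb2 and Dpy19l2, taken by symbol, and each had 1 row among the 38685 rows of the table. The study asked whether loss of protamine 2 (Prm2), a protein that packs the DNA of sperm, alters testicular gene expression. Total RNA of whole testis without the tunica albuginea was sequenced from the 3′ end (QuantSeq) in C57BL/6 males of 3 genotypes, namely Prm2+/+ (wildtype), Prm2+/- (heterozygous) and Prm2-/- (Prm2-deficient). There were 3 biological replicates per genotype, each of which is 1 library. The age of these males and the part of Prm2 that the allele lacks are not given in the sources used here. Whole testis is a mixture of cell types, so that fewer cells of a type and less RNA per cell cannot be told apart.

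In a LINC complex, a SUN protein in the inner nuclear membrane binds a KASH protein (a nesprin) in the outer membrane, and the pair couples the lamina and chromatin to microtubules and actin. In the male germ line this bridge first moves the telomeres of spermatocytes along the nuclear envelope and later holds the manchette, the acrosome and the tail to the condensing spermatid nucleus. Sun1 and Sun2 are broadly expressed, whereas Sun3, Spag4 and Sun5 are SUN genes of the testis. Syne1 and Syne2 encode the giant nesprins, Lmna and Lmnb2 encode lamins, and Dpy19l2 encodes an inner membrane protein that fixes the acrosome to the nucleus.

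To show what lies before the transcription starts, 250 bases upstream of each RefSeq start (GRCm38.p6) were searched on both strands for 5 short motifs. The first was the full cAMP response element, spelled TGACGTCA, which is bound by activators of spermatid genes. The second was its core, TGACG, which the full element contains on each strand and so counts under both. An X-box core was searched as GTTGCC. A box of the TATA type was searched as TATAAA, and the SP1 box of many broadly active promoters as GGGCGG. The 10 genes had 16 such windows. The full element was found in Spag4 alone among them, and 1.55% of all 32851 windows held it. Spag4 is shown for this element, Sun5 as another SUN gene of the testis whose window held none of the 5 motifs, and Sun1 as a broadly expressed SUN gene. Capitals mark matches to any of the 5 motifs, which are the full element and the core in Spag4 and the core and the SP1 box in Sun1. The Spag4 gene as placed below (GENCODE M21) starts at 156065175, inside this RefSeq window. The marked matches of Spag4 lie past that start, so they are upstream only of the RefSeq start.
Spag4, chr2:156064963-156065212, plus strand: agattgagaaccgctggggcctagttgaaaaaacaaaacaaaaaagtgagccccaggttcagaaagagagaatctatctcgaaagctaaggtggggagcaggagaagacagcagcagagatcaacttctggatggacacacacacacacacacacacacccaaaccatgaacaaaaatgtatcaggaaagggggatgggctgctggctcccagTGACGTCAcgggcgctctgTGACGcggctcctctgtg
Sun5, chr2:153871085-153871334, minus strand: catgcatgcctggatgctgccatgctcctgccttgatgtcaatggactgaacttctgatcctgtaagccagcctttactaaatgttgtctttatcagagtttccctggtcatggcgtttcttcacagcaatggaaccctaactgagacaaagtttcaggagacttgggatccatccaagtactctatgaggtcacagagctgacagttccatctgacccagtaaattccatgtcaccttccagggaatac
Sun1, chr5:139200387-139200636, plus strand: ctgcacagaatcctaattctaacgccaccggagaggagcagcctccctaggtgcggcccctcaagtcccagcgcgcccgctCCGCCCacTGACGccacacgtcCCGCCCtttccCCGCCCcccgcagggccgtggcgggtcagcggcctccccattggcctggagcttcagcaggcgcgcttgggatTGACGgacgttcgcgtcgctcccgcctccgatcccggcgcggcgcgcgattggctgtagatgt

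The core TGACG was matched in 2 of the 16 windows, those of Spag4 and 1 of Sun1, against 17.8% of all windows. The SP1 box was present in 6 of the 16 windows, near the 32.7% of all windows that held it. These were windows of Sun1, Sun2, Syne1, Syne2, Lmna and Lmnb2, and no window of Sun3, Sun5, Spag4 or Dpy19l2 had it. Some genes had more windows than others. Sun1 and Syne1 each had a box of the TATA type in 1 window (12.4% of all windows), and the X-box core was absent from the 16 windows (10.4% of all windows). In G and C content the window of Sun5 had 46.8% with 1 CpG, that of Spag4 51.2% with 7 CpG and the printed window of Sun1 70% with 30 CpG, and the median over all windows was 52.4%. These are letter matches in a fixed window, not binding sites.

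The libraries held between 3629929 and 4490411 counts. The transcript of the targeted gene ranged from 29716 to 39665 normalized counts in Prm2+/+ and from 34660 to 42766 in Prm2-/-, so that its 3′ reads did not tell the genotypes apart and are no check of the labels, and those of Prm1, Tnp1 and Tnp2, which also package sperm DNA, were present in all 9 libraries. Replicate 3 of Prm2+/+ stood apart. The median absolute log2 difference between this library and the median of the other 8 was 0.368 over the 14893 genes tested, against 0.159 to 0.206 for the others, and 49.5% of those genes had their lowest or highest value there (15.1% to 24.3% in the others). Of the 10 genes, 3 had their lowest or highest value there. Values without this library stand beside the results that it moves most.

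All 10 genes were measured in every library and passed the filter on low counts. Ordered by normalized counts per kb of the principal transcript, Spag4 was highest with 940 ± 155 (SD, n = 9), followed by Sun3 (325 ± 38.2), Sun5 (304 ± 58.4) and Dpy19l2 (99.5 ± 8.68). The broadly expressed genes came next on the same scale, with 41.7 ± 3.69 for Lmnb2, 31.6 ± 3.49 for Sun2, 23.3 ± 3.09 for Sun1 and 20.3 ± 7.11 for Lmna. The giant nesprins were lowest, with 5.75 ± 1.19 for Syne2 and 0.691 ± 0.136 for Syne1. Neighbours in this order kept it in all 9 libraries, except Sun3 over Sun5, which held in 8, and Sun1 over Lmna, which held in 6. The reads come from 3′ ends, so division by length lowers long transcripts such as the nesprins. It also lowers Dpy19l2 (3442 bases) against Sun5 (1157 bases). By counts alone the order of the means differed only in Syne2, which then came sixth. Sun5 and Dpy19l2 then lay close, with means of 352 and 343, and Sun5 was the higher in only 3 of the 9 libraries.

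**Figure D1:**
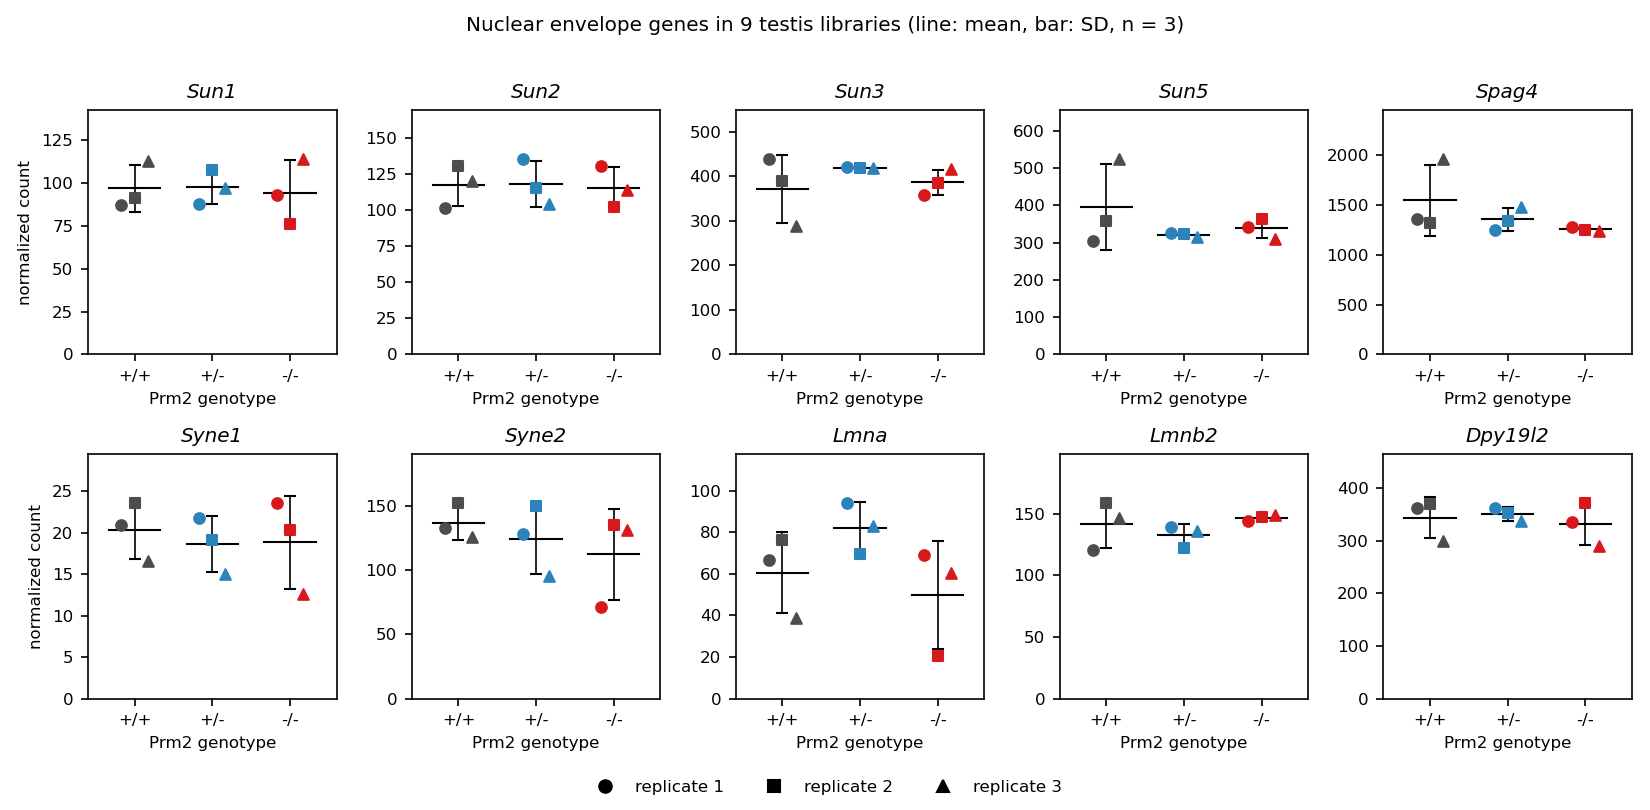
Normalized counts (y axis, from 0, own scale per gene) of the 10 genes by Prm2 genotype (x axis). Points are single libraries with a marker per replicate, lines are means and bars are SDs of 3 libraries. The triangle of Prm2+/+ is the highest point for Sun5 and Spag4 and the lowest for Sun3, and the lowest point for Lmna is replicate 2 of Prm2-/-.

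None of the 10 genes differed between genotypes in the test over all genes (limma, with counts on the log2 scale after 1 was added). A gene was called when its p, adjusted after Benjamini and Hochberg, was under 0.05 and its log2 fold change (LFC) exceeded 0.5 in size. In Prm2-/- against Prm2+/+, 0 of 10 were called, where 27 of the 14893 genes tested were (0.181%). In Prm2+/- against Prm2+/+ the counts were 0 of 10 and 12 genes (0.0806%), and in Prm2-/- against Prm2+/- they were 0 of 10 and 26 genes (0.175%). At an unadjusted p under 0.05, 0 of 10 genes passed in each comparison, against 7.33%, 4.24% and 5.44% of all genes tested. edgeR and DESeq2 on the recovered counts also called 0 of 10 in each comparison (0.161%, 0.0671% and 0.154% of all genes in edgeR, and 0.88%, 0.396% and 0.739% in DESeq2). The smallest adjusted p of a member in these tests and in every alternative setting was 0.560.

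The 95% intervals give a range for each LFC and are not adjusted for the number of genes. A difference larger than an interval could also have gone uncalled. In Prm2-/- against Prm2+/+ the 95% interval of the LFC lay within 0.5 of 0 for 5 of the 10 genes, namely Sun1, Sun2, Sun3, Lmnb2 and Dpy19l2 (23.5% of all genes tested). It did so for 4 genes in Prm2+/- against Prm2+/+ (24.7% of all genes) and for 7 in Prm2-/- against Prm2+/- (24.8%). Without replicate 3 of Prm2+/+ these counts were 7, 6 and 7. The interval of Lmna was the widest of the 10 in each comparison and passed 0.5 on at least 1 side. The median LFC over the 10 genes was -0.09, -0.04 and -0.07 in the 3 comparisons in the same order, and that over all genes tested was 0.02, 0.01 and -0.01. The LFC was above 0 for 2, 5 and 2 of the 10 genes, and for 52.9%, 51.9% and 49% of all genes. The comparisons share libraries, so their values for a gene are not independent.

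**Figure D2:**
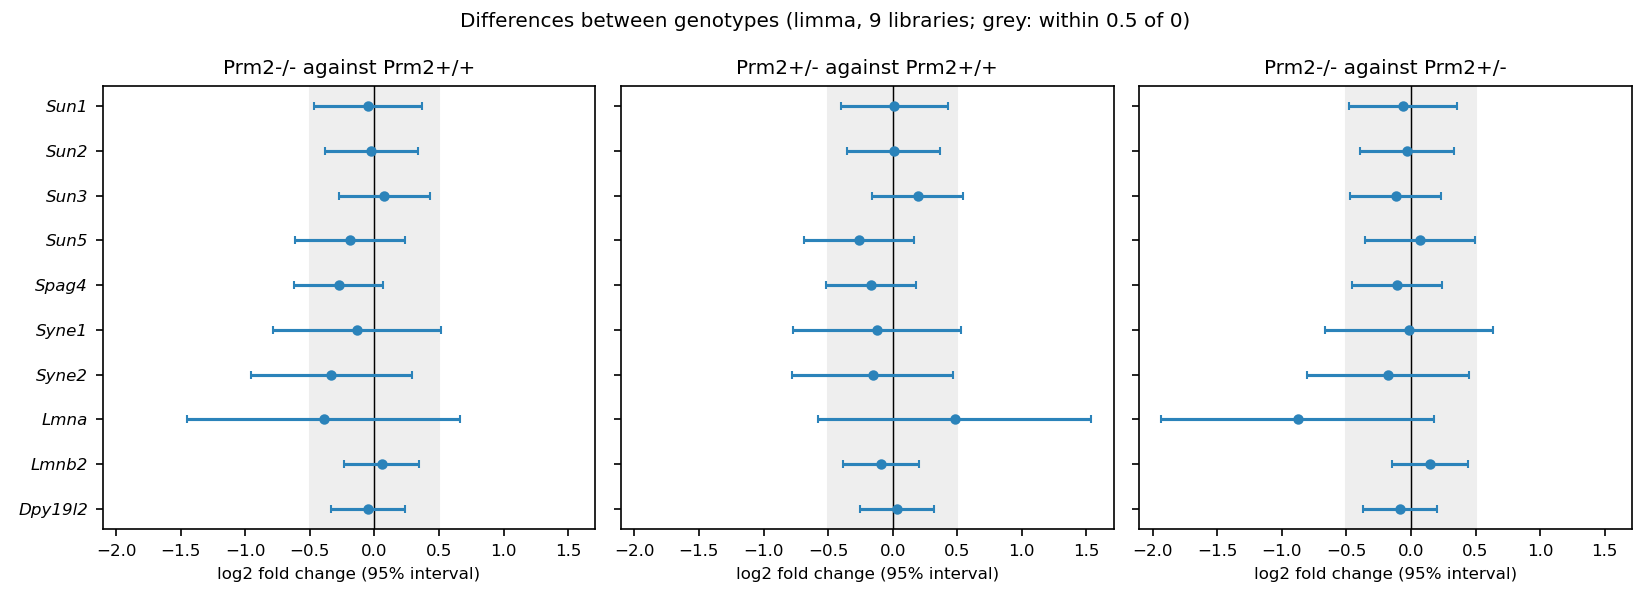
LFC (x axis, log2) of the 10 genes in the 3 comparisons, with 95% intervals from limma on 9 libraries. The grey band covers LFCs within 0.5 of 0. Every interval spans 0, and those of Lmna are the widest.

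Spag4 encodes SUN4, a SUN protein of the spermatid envelope at the manchette, and lies on chromosome 2, 156065175 to 156070617 (GRCm38, plus strand, 12 exons in the principal transcript). It had 1362, 1316 and 1959 normalized counts in replicates 1 to 3 of Prm2+/+, then 1252, 1336 and 1477 in Prm2+/-, and 1276, 1245 and 1241 in Prm2-/-. The 3 Prm2-/- libraries lay below the 3 Prm2+/+ libraries without overlap. Groups without overlap occurred for 1 of the 10 genes in this comparison and for 14% of all genes tested. The LFC was -0.28 (SE, the standard error, 0.15, 95% interval -0.62 to 0.07, limma adjusted p = 0.721), which is not past the threshold. Without replicate 3 of Prm2+/+ it was -0.09, and the LFC of Prm2+/- against Prm2+/+ went from -0.17 to 0.01.

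Sun5 encodes the SUN protein of the head-to-tail coupling apparatus and lies on the same chromosome, 153856188 to 153871084 (minus strand, 12 exons). Its normalized counts were 305, 357 and 524 in Prm2+/+. They were 325, 324 and 315 in Prm2+/-, and 341, 362 and 310 in Prm2-/-. Replicate 3 of Prm2+/+ was the highest of the 9 libraries, and the other 8 lay between 305 and 362. The LFC of Prm2-/- against Prm2+/+ was -0.19 (SE 0.19, 95% interval -0.62 to 0.24, limma adjusted p = 0.794) and turned to 0.03 without that replicate. For Prm2+/- against Prm2+/+ it was -0.26 (SE 0.19), and -0.04 without it.

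Sun3, whose protein sits with SUN4 at the manchette, lies on chromosome 11, 9016054 to 9048991 (minus strand, 9 exons). It had 438, 388 and 287 normalized counts in Prm2+/+. The Prm2+/- libraries had 420, 418 and 417, and the Prm2-/- libraries 358, 386 and 415. Here replicate 3 of Prm2+/+ was the lowest library, opposite to Spag4 and Sun5. The LFC of Prm2-/- against Prm2+/+ was 0.08 (SE 0.15, 95% interval -0.28 to 0.43, limma adjusted p = 0.908) and turned to -0.10 without this replicate. The Prm2-/- libraries lay below the Prm2+/- libraries without overlap, though by only 415 against 417 normalized counts, with an LFC of -0.12 (SE 0.15, limma adjusted p = 0.9997). In Prm2-/- against Prm2+/-, groups without overlap occurred for 3 of the 10 genes and for 14.7% of all genes tested. In Prm2+/- against Prm2+/+ they occurred for 0 of 10 and for 9.44%.

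Dpy19l2, whose loss gives round-headed sperm in mice and men, lies on chromosome 9, 24557047 to 24696293 (minus strand, 22 exons). Its normalized counts were 363, 370 and 299 in Prm2+/+. The Prm2+/- libraries had 363, 353 and 338, and the Prm2-/- libraries 336, 371 and 290. The groups overlapped, and the highest library was 1.28 times the lowest, the smallest such ratio of the 10 genes. The LFC of Prm2-/- against Prm2+/+ was -0.05 (SE 0.13, 95% interval -0.34 to 0.24, limma adjusted p = 0.932). This interval corresponds to a level between 0.791 and 1.18 times that of Prm2+/+.

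Replicate 3 of Prm2+/+ did not move the 4 genes of the spermatid envelope together. Against the median of the other 8 libraries, Sun5 was 0.69 and Spag4 0.60 higher there on the log2 scale, while Sun3 was 0.53 and Dpy19l2 0.26 lower. The ratio of Sun3 to Spag4 normalized counts was 0.147 in this library and 0.280 to 0.336 in the other 8. That of Dpy19l2 to Spag4 was 0.153 against 0.228 to 0.298. The ratio of Sun5 to Spag4 stayed between 0.213 and 0.291 over all 9 libraries. In the same library the summed normalized counts of 8 spermatocyte markers were 5271, the lowest of the 9 (6199 to 7053 in the others), and those of 7 round spermatid markers were 7550, the highest (5945 to 6763 in the others). The spermatocyte markers did not all move together. Ccna1 had 6.63 there against 491 to 644 in the others, and Sycp1, Sycp3, Hormad1 and Piwil1 were also lowest. Spo11 was highest there (156 against 3.62 to 151), and Dmc1 and Pou5f2 lay within the range of the others. Round spermatid markers likewise did not move together. Spata18 had 3323 there against 1592 to 2190 in the others, and Acrv1, Catsper3 and Lyzl1 were also highest. Spaca1 (285 against 862 to 1066) and Acr (435 against 494 to 730) were lowest there. The sum of 10 Sertoli cell markers was also highest in this library, at 4056, against 2549 to 3687. Amhr2 had 692 there (6.43 to 544 in the others) and Clu 2534 (1649 to 2183), and Inha was highest as well. Wt1 was lowest there (18.8 against 22.8 to 148), and Gata4 was at 0 there, as in some other libraries. The part of cell composition in the levels of these genes was not tested.

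**Figure D3:**
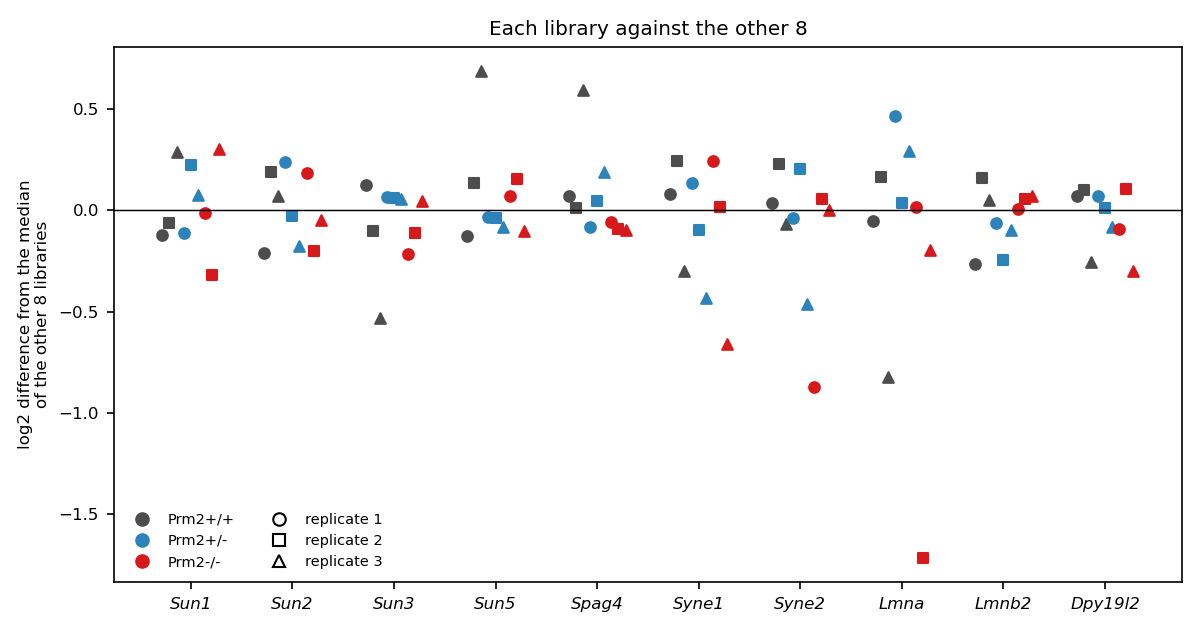
For each of the 10 genes (x axis), the log2 difference of each library from the median of the other 8 (y axis), coloured by genotype with a marker per replicate. Replicate 3 of Prm2+/+ (grey triangle) is at 0.69 for Sun5, 0.60 for Spag4 and -0.53 for Sun3, and replicate 2 of Prm2-/- (red square) is the lowest point for Lmna.

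Sun1, whose protein tethers meiotic telomeres, lies on chromosome 5, 139200637 to 139249840 (plus strand, 23 exons). It had 87.4, 91.1 and 113 normalized counts in Prm2+/+. The Prm2+/- libraries had 88.0, 108 and 97.2, and the Prm2-/- libraries 93.3, 76.1 and 114. The groups overlapped, and the LFC of Prm2-/- against Prm2+/+ was -0.05 (SE 0.18, 95% interval -0.47 to 0.37, limma adjusted p = 0.960).

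Sun2, the partner of Sun1 in many tissues, lies on chromosome 15, 79724070 to 79742536 (minus strand, 17 exons). Its normalized counts were 102, 131 and 120 in Prm2+/+. They were 135, 115 and 104 in Prm2+/-, and 130, 102 and 114 in Prm2-/-. The ranges of the 3 genotypes nearly coincided, with an LFC of -0.02 for Prm2-/- against Prm2+/+ (SE 0.16, 95% interval -0.39 to 0.34, limma adjusted p = 0.986).

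Syne2, the gene of nesprin-2, lies on chromosome 12, 75818134 to 76110926 (plus strand, 116 exons). It had 133, 152 and 126 normalized counts in Prm2+/+. The Prm2+/- libraries had 129, 150 and 95.4, and the Prm2-/- libraries 71.5, 135 and 131. Replicate 1 of Prm2-/- was the lowest library and the other 2 of that genotype lay within the Prm2+/+ range. The LFC of Prm2-/- against Prm2+/+ was -0.33 (SE 0.27, 95% interval -0.96 to 0.29, limma adjusted p = 0.761) and -0.04 without that replicate.

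Syne1, the gene of nesprin-1, spans chromosome 10, 5020917 to 5551482 (minus strand, 146 exons), and was the least covered of the 10, with 12 to 26 recovered counts per library. The normalized counts were 20.9, 23.6 and 16.6 in Prm2+/+. They were 21.8, 19.2 and 15.02 in Prm2+/-, and 23.5, 20.3 and 12.7 in Prm2-/-. The groups overlapped. The LFC of Prm2-/- against Prm2+/+ was -0.13 (SE 0.28, 95% interval -0.79 to 0.52, limma adjusted p = 0.912). A call rests on a p adjusted over all genes, so a difference within this interval, or a larger one, could have gone uncalled at this depth.

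Lmna, the gene of lamins A and C and of the meiotic lamin C2, lies on chromosome 3, 88480147 to 88509956 (minus strand, 12 exons in the principal transcript). It had 66.5, 76.1 and 38.7 normalized counts in Prm2+/+. The Prm2+/- libraries had 93.9, 69.4 and 83.1, and the Prm2-/- libraries 68.8, 20.3 and 60.2. The lowest value, in replicate 2 of Prm2-/-, rests on 20 counts, and the highest library was 4.63 times the lowest, the largest such ratio of the 10 genes. The LFC of Prm2-/- against Prm2+/+ was -0.39 (SE 0.46, 95% interval -1.45 to 0.66, limma adjusted p = 0.820). It was 0.15 without that replicate and -0.68 without replicate 3 of Prm2+/+, so its direction rested on 1 library. Against Prm2+/- the Prm2-/- libraries did not overlap, with 68.8 as their highest and 69.4 as the lowest of Prm2+/-. That LFC was -0.88 (SE 0.46, 95% interval -1.93 to 0.18, limma adjusted p = 0.963), and -0.34 without replicate 2 of Prm2-/-.

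Lmnb2, the gene of lamin B2 and of its spermatid variant lamin B3, lies on chromosome 10, 80901203 to 80918245 (minus strand, 12 exons). Its normalized counts were 121, 159 and 147 in Prm2+/+. They were 139, 122 and 136 in Prm2+/-, and 144, 147 and 149 in Prm2-/-. The Prm2-/- libraries lay above those of Prm2+/- without overlap (144 against 139 at the nearest) and inside the range of Prm2+/+. The LFC was 0.15 against Prm2+/- (SE 0.13, 95% interval -0.15 to 0.44, limma adjusted p = 0.986) and 0.05 against Prm2+/+ (SE 0.13, 95% interval -0.24 to 0.35, limma adjusted p = 0.925). Lamin B2 and B3 share the 3′ end and cannot be told apart in these counts, as is the case for the products of Lmna where they share it.

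The spread of the replicates was set against counting error. The ratio of spread to counting error also rises with the counts of a gene, so its order is not an order of spread. No ratio over all genes tested stands beside the values of the members. For Syne1 the coefficient of variation within genotypes was 22.4%, and the counts alone give 22.5%, a ratio of 0.995. The ratio was 1.06 for Lmnb2, 1.39 for Sun2, 1.52 for Sun1 and 1.84 for Dpy19l2. It was 2.54 for Sun3, 2.57 for Syne2, 2.95 for Lmna, 3.26 for Sun5 and 5.35 for Spag4, where counting gives only 2.67% and the libraries spread by 14.3%. Much of the excess of the spermatid SUN genes lay in replicate 3 of Prm2+/+. Without this library the ratio fell to 2.03 for Spag4 (a spread of 5.52%), 1.3 for Sun5 and 1.24 for Sun3, whereas it was 2.88 for Lmna, 2.79 for Syne2 and 1.53 for Dpy19l2. The spread of Syne1 and Lmnb2 was close to what their counts allow with and without it (ratios of 1.004 and 1.158 without). The gene whose centred log2 profile over the 9 libraries was nearest to that of Spag4, the gene with the highest mean, was Aprt (root mean square difference 0.0412), and the nearest to Lmna, the gene with the largest SD, was Smim8 (0.155).

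**Figure D4:**
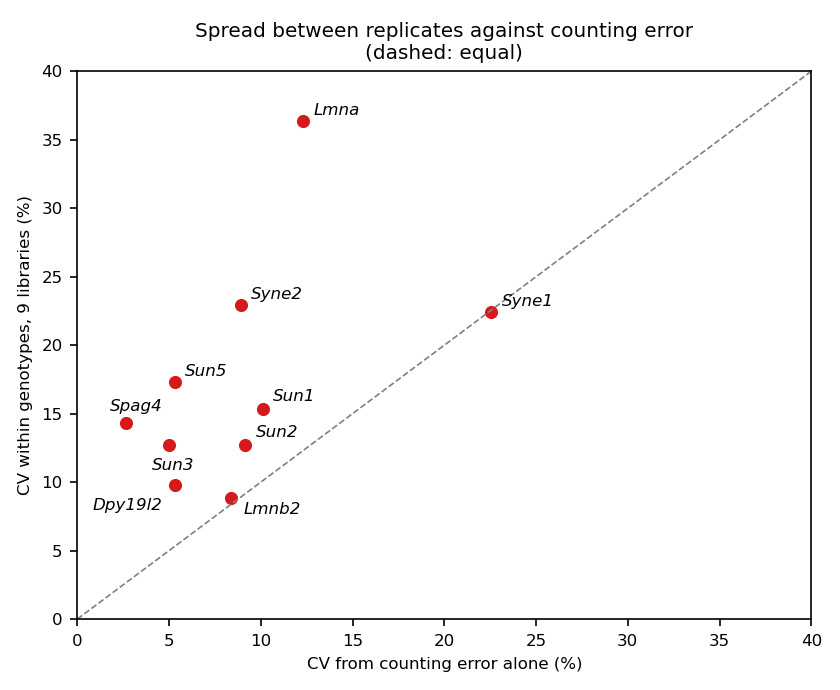
Coefficient of variation within genotypes over the 9 libraries (y axis, percent) against that from counting error alone (x axis, percent) for the 10 genes. The dashed line marks equality. Syne1 and Lmnb2 lie near the line, and Lmna is the highest at 36.3%.

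Jumps between libraries were looked for as well. Sorted by level, no pair of neighbouring libraries differed by more than 4-fold for any of the 10 genes. Such a gap occurred for 13.7% of all genes tested and for 10 of 117 tested genes of 7 related lists. For only 10 genes, 0 is near that share and is not read as a trait of the members. Overlapping genes were read as well, since it is not given whether the counting used the strand. Of the 10 genes, 6 overlap another annotated gene and 4 (Sun5, Spag4, Lmna and Lmnb2) do not. Sun3 shares 123 exon bases with Gm11992 on the opposite strand, which had 26.5 normalized counts in replicate 3 of Prm2+/+ and 126 to 198 in the other libraries. Sun1 and Sun2 share 302 and 147 exon bases with antisense genes at 0 to 25.4 and 0 to 6.63 normalized counts. Cypt4, a spermatid gene inside Dpy19l2 on the opposite strand, had 2994 to 3858 normalized counts but shares 0 exon bases with it.

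The members were set beside 7 lists of related genes with 130 symbols, some of which name the same gene, and 117 genes were tested. 0 of the 117 were called in any of the 3 comparisons by limma, and 7, 6 and 12 had an unadjusted p under 0.05. With 1 library left out, 3 of them were called in at least 1 comparison, namely Csnk2a2, Spatc1l and Ndc1, whose values are given with their lists. By edgeR 0 of them had an adjusted p under 0.05, and by DESeq2 1, 0 and 3 had. In other LINC, lamina and inner membrane genes (24 tested), the median LFC of Prm2-/- against Prm2+/+ was 0.08 with 16 above 0, and the smallest p belonged to Tmem43, an inner membrane protein (LFC 0.64, limma adjusted p = 0.696). Without replicate 3 of Prm2+/+ the median was -0.04 with 10 above 0, and the LFC of Tmem43 was 0.40. Meiotic telomere attachment genes (6 tested) had a median of -0.01 with 3 above 0, and Terb2, part of the telomere adaptor, had an LFC of 0.61 (limma adjusted p = 0.753). Without that library the median was -0.18 with 2 above 0, and the LFC of Terb2 was 0.14. For nuclear pore genes (29 tested) the median was 0.02 with 15 above 0, and for Nup210l, a testis paralog of the pore membrane protein, the LFC was 0.59 (limma adjusted p = 0.619). Without it the median was -0.06 with 13 above 0, and the LFC of Nup210l was 0.35.

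In the lists of spermatid head structures, head-to-tail coupling genes (16 tested) had a median of -0.03 with 7 above 0. Without replicate 3 of Prm2+/+ this median was 0.06 with 11 above 0. Odf2, a protein of outer dense fibres and centrioles, had 3198, 3040 and 3862 normalized counts in Prm2+/+. It had 3684, 3193 and 2767 in Prm2+/-, and 4869, 4816 and 4660 in Prm2-/-. The Prm2-/- libraries were above the other 6, with an LFC of 0.51 against Prm2+/+ (SE 0.12, limma adjusted p = 0.392 and 0.0481 in DESeq2) and 0.58 against Prm2+/- (limma adjusted p = 0.417 and 0.0121 in DESeq2). Acrosome genes (16 tested) had a median of 0.03 with 10 above 0, and Csnk2a2, a kinase subunit whose loss gives round sperm heads, had 52.3, 84.7 and 250 normalized counts in Prm2+/+ and 333, 394 and 308 in Prm2-/- (LFC 1.72, SE 0.55, limma adjusted p = 0.574 and 0.451 in DESeq2). Against Prm2+/-, where Csnk2a2 had 75.1, 82.2 and 35.3, its LFC was 2.49 (limma adjusted p = 0.460 and 0.00609 in DESeq2), and the limma adjusted p was 0.0489 without replicate 3 of Prm2+/+. Perinuclear theca genes (10 tested) had a median of -0.05 with 3 above 0, and the smallest p belonged to Actrt2 (LFC -0.16, limma adjusted p = 0.754, and -0.0509 without replicate 3 of Prm2+/+). Without that library the median of this list was 0.03 with 5 above 0. Manchette genes (19 tested) had a median of 0.05 with 12 above 0, led by Ift88, a transport protein (LFC 0.66, limma adjusted p = 0.650).

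Spatc1l and Ndc1, chosen after their values were seen, had gaps of more than 4-fold between neighbouring libraries. Spatc1l, a head-to-tail coupling gene, had 13.3, 28.9 and 7.73 normalized counts in Prm2+/+ and 479, 549 and 564 in Prm2-/-. In Prm2+/- replicate 1 had 534 while replicates 2 and 3 had 5.48 and 11.5, so that the heterozygous libraries split. Its LFC against Prm2+/+ was 5.09 (SE 1.46, limma adjusted p = 0.510 on 9 libraries, 0.0117 on the 6 libraries compared and 0.00733 without replicate 1 of Prm2+/-). The adjusted p was 0.563 in edgeR, and DESeq2 gave none for this gene. Ndc1, a pore membrane protein, had 5.70, 3.21 and 61.9 normalized counts in Prm2+/+. It had 72.2, 79.5 and 71.6 in Prm2+/-, and 4.53, 8.12 and 4.22 in Prm2-/-. The high value in Prm2+/+ again belonged to replicate 3, and the LFC of Prm2-/- against Prm2+/- was -3.55 (SE 0.89, limma adjusted p = 0.612 on 9 libraries, 0.00639 on the 6 libraries compared and 0.0341 in DESeq2). Without replicate 3 of Prm2+/+ Ndc1 was called in Prm2-/- against Prm2+/- (limma adjusted p = 0.00503) and in Prm2+/- against Prm2+/+ (LFC 3.82, limma adjusted p = 0.00681).

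**Figure D5:**
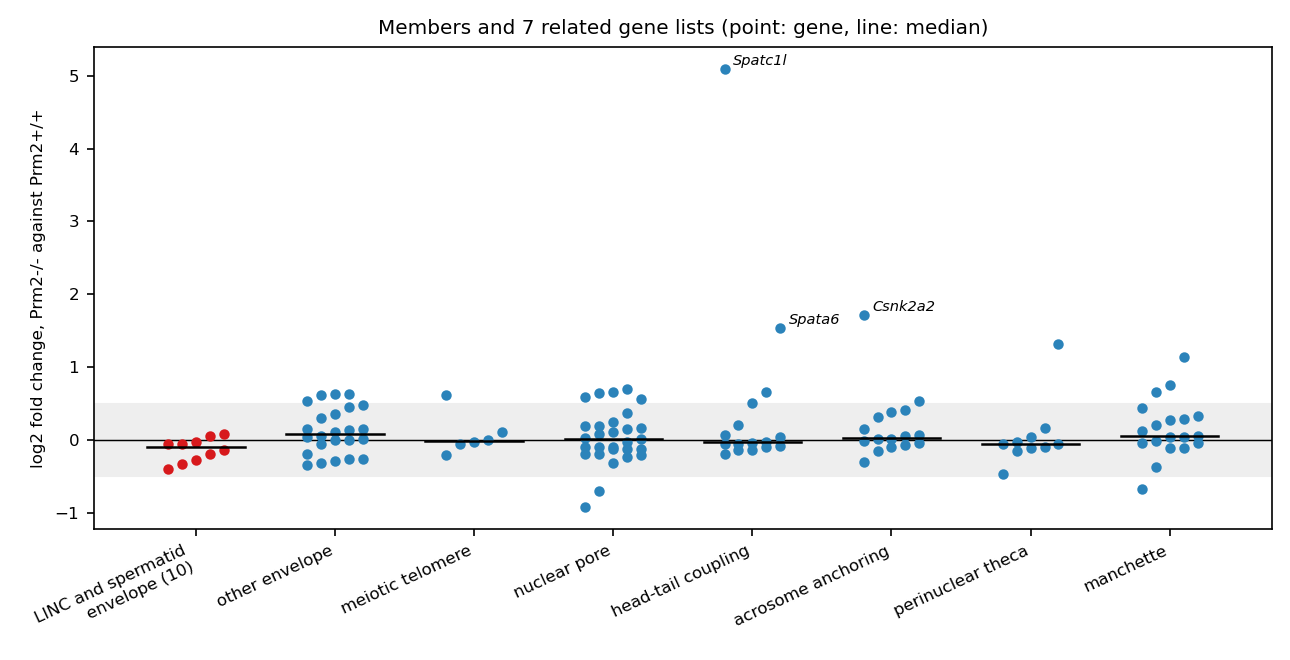
LFC of Prm2-/- against Prm2+/+ (y axis, log2) for the 10 genes (red) and for the tested genes of 7 related lists (blue, x axis). Points are genes, lines are medians and the grey band covers LFCs within 0.5 of 0. The 10 genes lie between -0.39 and 0.08, and the 3 labelled points are Spatc1l, Csnk2a2 and Spata6.

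Markers of the cell types of the testis were read for the same 9 libraries. 0 of 54 tested genes in 9 lists were called in any comparison by limma, and 4, 3 and 0 had an unadjusted p under 0.05 in the 3 comparisons. By edgeR and DESeq2, 0 of them had an adjusted p under 0.05. The summed counts of elongating spermatid markers, which include Prm2 itself and come mostly from Prm1, Prm2, Tnp1 and Tnp2, ranged from 250465 to 267040 in Prm2+/+ and from 248748 to 266920 in Prm2-/-. Those of spermatogonia (230 to 329 against 254 to 299), Leydig cells (1711 to 2007 against 1923 to 2198), macrophages and blood (679 to 931 against 749 to 1001) and endothelium (51.4 to 66.3 against 42.6 to 70.6) also overlapped. So did the sums of round spermatid, spermatocyte and Sertoli cell markers in these 2 genotypes. A sum can hide single markers. Of the elongating spermatid markers, Akap4 had 208, 2133 and 194 normalized counts in Prm2+/+ and 1980 to 2148 in Prm2-/-. Tnp1 was lower in Prm2-/- without overlap (62524 to 65668 against 66174 to 72964), and the others of that list overlapped. The sums of peritubular markers were 293 to 358 in Prm2+/+ and 240 to 298 in Prm2-/-, which overlap only narrowly, and 2 of the 4 tested peritubular genes (Acta2 and Cnn1, both of smooth muscle) had an unadjusted p under 0.05. Acta2 had 227, 212 and 206 normalized counts in Prm2+/+ and 167, 189 and 180 in Prm2-/-, and Cnn1 had 34.2, 25.7 and 23.2 against 12.7, 18.3 and 16.9, in both cases without overlap. The LFC of Acta2 was -0.27 (limma adjusted p = 0.604). Des, an intermediate filament gene of muscle, was at 0 in replicates 2 and 3 of Prm2+/+, at 33.3 in replicate 1 and at 13.6 to 31.6 in the other 6 libraries. It was called against Prm2+/+ only without replicate 1 of that genotype (limma adjusted p = 0.00470 for Prm2-/- and 0.00512 for Prm2+/-). The part of peritubular cells in the values of the 10 genes was not tested. Against Prm2+/-, the Sertoli sums of Prm2-/- did not overlap (2570 to 2694 in Prm2+/- and 2971 to 3687 in Prm2-/-). Amhr2 had 539, 544 and 11.6 normalized counts in Prm2-/- and 7.95 to 12.8 in Prm2+/-, and Clu and Inha were higher in Prm2-/- without overlap. Sox9, Gata4, Wt1, Cldn11 and Rhox5 overlapped, and the mean of Rhox5 was lower in Prm2-/- (180 against 192). The round spermatid sums were 5945 to 6230 in Prm2+/-, 6167 to 6635 in Prm2-/- and 6444 to 7550 in Prm2+/+. Only Spata18 of these markers separated Prm2+/- (1592 to 1818) from Prm2+/+ (2143 to 3323), and the others overlapped. The part of these markers in the values of Sun3, Lmna and Lmnb2 against Prm2+/- was not tested. By list, the genes of smallest p in Prm2-/- against Prm2+/+ were Gata4 (Sertoli), Cyp11a1 (Leydig), Cnn1 (peritubular), Hba-a1 (blood), Kdr (endothelium), Zbtb16 (spermatogonia), Pou5f2 (spermatocytes), Spata18 (round spermatids) and Tnp1 (elongating spermatids). Cnn1, a smooth muscle protein, had the smallest of these, with an LFC of -0.76 (SE 0.22, limma adjusted p = 0.522).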

How the data were processed

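Values for 9 testis libraries (3 per genotype) were read from 1 deposited table. They are a signal, namely normalized counts that the authors made by dividing each library's counts by a size factor. By the submitters' notes and the methods, reads were trimmed with Trim Galore 0.4.5, mapped to GRCm38 with HISAT2 2.1 and quantified with StringTie 1.3.3. Counts were recovered from the value of 1 read in each library, and 100% of values came out whole (within 0.001). This step for replicate 1 of Prm2+/- lies so near 1 that this is weaker evidence. Of 38685 rows, 38520 (99.6%) matched GENCODE M21 (GRCm38), which gave positions, and promoter sequences came from RefSeq (GRCm38.p6).

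The main test was limma 3.58.1 (lmFit, eBayes with trend) in R 4.3.3 on log2(normalized count + 1) over the 14893 genes kept by filterByExpr, with all 9 libraries and genotype as the term. LFCs are on this scale. A gene was called with an LFC beyond 0.5 and a p under 0.05 after adjustment by Benjamini and Hochberg. edgeR 4.0.16 and DESeq2 1.42.0 on recovered counts, other filters, pseudocounts and scaling, the 6 libraries compared, a replicate block and leaving out each library were the alternatives. The scripts were tested on simulated data.

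Members and lists were chosen with earlier results of these data known. Named are the 10 members, list genes called in any comparison, the gene of smallest p in each list, the nearest profile for the members of largest SD and highest mean, and Prm2, Prm1, Tnp1 and Tnp2, with exceptions named where they occur. Acta2, Des, Akap4 and the other cell type markers outside these rules were also chosen after their values were seen. The fits of list genes and the spread of members with a library left out were chosen after seeing the data. Counting error was taken as Poisson. Protein sequences were not used here.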

Additional observations from a re-analysis of the deposited data

How the results depend on the processing

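The call of none of the 10 genes changed in any comparison under 9 alternative settings and 9 fits that each left out a library (0 called in each), with a smallest adjusted p of 0.560. Of 540 LFCs of the members in these fits, 509 kept their direction and 31 turned. Outside the fits with a library left out, only Syne1 turned, in Prm2-/- against Prm2+/-, from -0.0139 to 0.0268 in edgeR and 0.0290 in DESeq2. With a library left out, the LFC of Prm2-/- against Prm2+/+ ranged from -0.19 to 0.0956 for Sun1, -0.12 to 0.0594 for Sun2, -0.0969 to 0.21 for Sun3, -0.36 to 0.0321 for Sun5, -0.31 to 0.11 for Syne1, -0.71 to 0.15 for Lmna, -0.0576 to 0.14 for Lmnb2 and -0.15 to 0.0443 for Dpy19l2. In Prm2+/- against Prm2+/+ it ranged from -0.0602 to 0.12 for Sun1, -0.094 to 0.0931 for Sun2, -0.27 to 0.0143 for Spag4, -0.25 to 0.0188 for Syne1, -0.30 to 0.0222 for Syne2 and -0.0622 to 0.0894 for Dpy19l2. In Prm2-/- against Prm2+/- it ranged from -0.21 to 0.0829 for Sun1, -0.12 to 0.0706 for Sun2, -0.19 to 0.23 for Syne1, -0.36 to 0.12 for Syne2 and -0.17 to 0.00987 for Dpy19l2.

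Over all genes, 27, 12 and 26 were called in the 3 comparisons. At least 10 counts in every sample gave 9, 1 and 11, a construction that tests fewer genes, and DESeq2 gave 131, 59 and 110. With only the 6 samples compared, 50 genes were called in Prm2-/- against Prm2+/+ and 52 in Prm2-/- against Prm2+/-. A count above 0 in at least 1 sample as the only filter gave 21 in Prm2+/- against Prm2+/+. Leaving out a library gave 28 to 64, 9 to 44 and 23 to 50. The replicate block gave 15, 6 and 14 calls. Same-numbered libraries did not deviate together (correlations of their deviations from -0.04 to 0.04, and from -0.04 to 0.05 for different numbers), so these values show no pairing by number. Whether same-numbered males were littermates or were processed together is not given in the sources used here, and these correlations cannot decide it. The cause of these changes was not tested beyond what the construction states. Depth limits Syne1, at 12 to 26 counts per library.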
